A study of Mus musculus with 3 samples.

Results

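The genes described here encode chromatin remodellers, histone deacetylases, histone demethylases and chromodomain proteins. They were chosen by symbol: every gene whose name begins with Smarc, Hdac, Kdm, Sirt, Chd or Cbx, apart from Smarcd3 and Kdm5d. On the arrays 64 such genes of 18193 named genes had a probe set of their own, a probe set being a group of short oligonucleotide probes against the same transcript. They had 153 of the 34945 probe sets with 1 gene symbol. A further 5 probe sets that name one of the genes together with another gene, 4 of them for Cbx3, were left out.

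The RNA came from untreated ICR mouse embryos at embryonic day 7.5, dissected into endoderm, mesoderm and epiblast, and each layer was hybridised to 1 array. The layers had been parted with needles after an enzyme treatment of the embryonic region, and the epiblast piece included the neuroectoderm and the primitive streak. The sources used here do not say how many embryos went into each array. With 1 array for each layer no difference has a replicate check, so the differences below are given as values without a p-value.

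Remodellers are ATP-driven enzymes that slide, evict or exchange nucleosomes. Deacetylases remove acetyl groups from histones, which favours closed chromatin, and several of them also act on other proteins. Lysine demethylases erase methyl marks of either active or silent chromatin, and chromodomain proteins of the Cbx family read the silent methyl marks for heterochromatin or for the Polycomb repressive complex 1. Embryos that lack core subunits of these machines commonly fail around implantation or gastrulation, and the exit from pluripotency depends on several of them.

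Where 3 values stand together, they are linear intensities of endoderm, then mesoderm, then epiblast. An intensity of 80.6, the median over all probe sets and arrays, served as a floor: 62 of the 64 genes exceeded it on at least 1 array, and a value below it was read as a bound. The exceptions were Hdac9, a class II deacetylase of muscle and neurons, with 34.3, 28.8 and 32.3, and Kdm4d, a demethylase of histone H3 lysine 9 (H3K9) best known from testis, with 30.0, 27.1 and 27.4. A gene with several probe sets is represented by the one with the highest mean log2 intensity. Differences between layers are log2 differences, and a gene was counted as differing at 2-fold or more. In bulk RNA of this kind fewer cells that express a gene and less RNA per cell cannot be told apart.

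Most of the chromatin genes had similar values in the 3 layers. Of the 62 genes above the floor, 8 differed at least 2-fold between some pair of layers, which is 12.9%, against a background of 21.5% of the 12785 genes above the floor. This gap depended on the scaling. After quantile normalization 12 of the 62 differed, close to the 19.9% of all genes. After centring on housekeeping genes 9 did, against 29.5% of all genes. Counted by probe set, 13 of 117 differed, or 11.1%, against 20.2% of all named probe sets above the floor. Within 1.5-fold lay 77.4% of the chromatin genes in the endoderm and epiblast pair, 91.9% in the mesoderm and epiblast pair and 82.3% in the endoderm and mesoderm pair. The same shares over all genes were 69%, 86.9% and 71.9%.

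**Figure D1:**
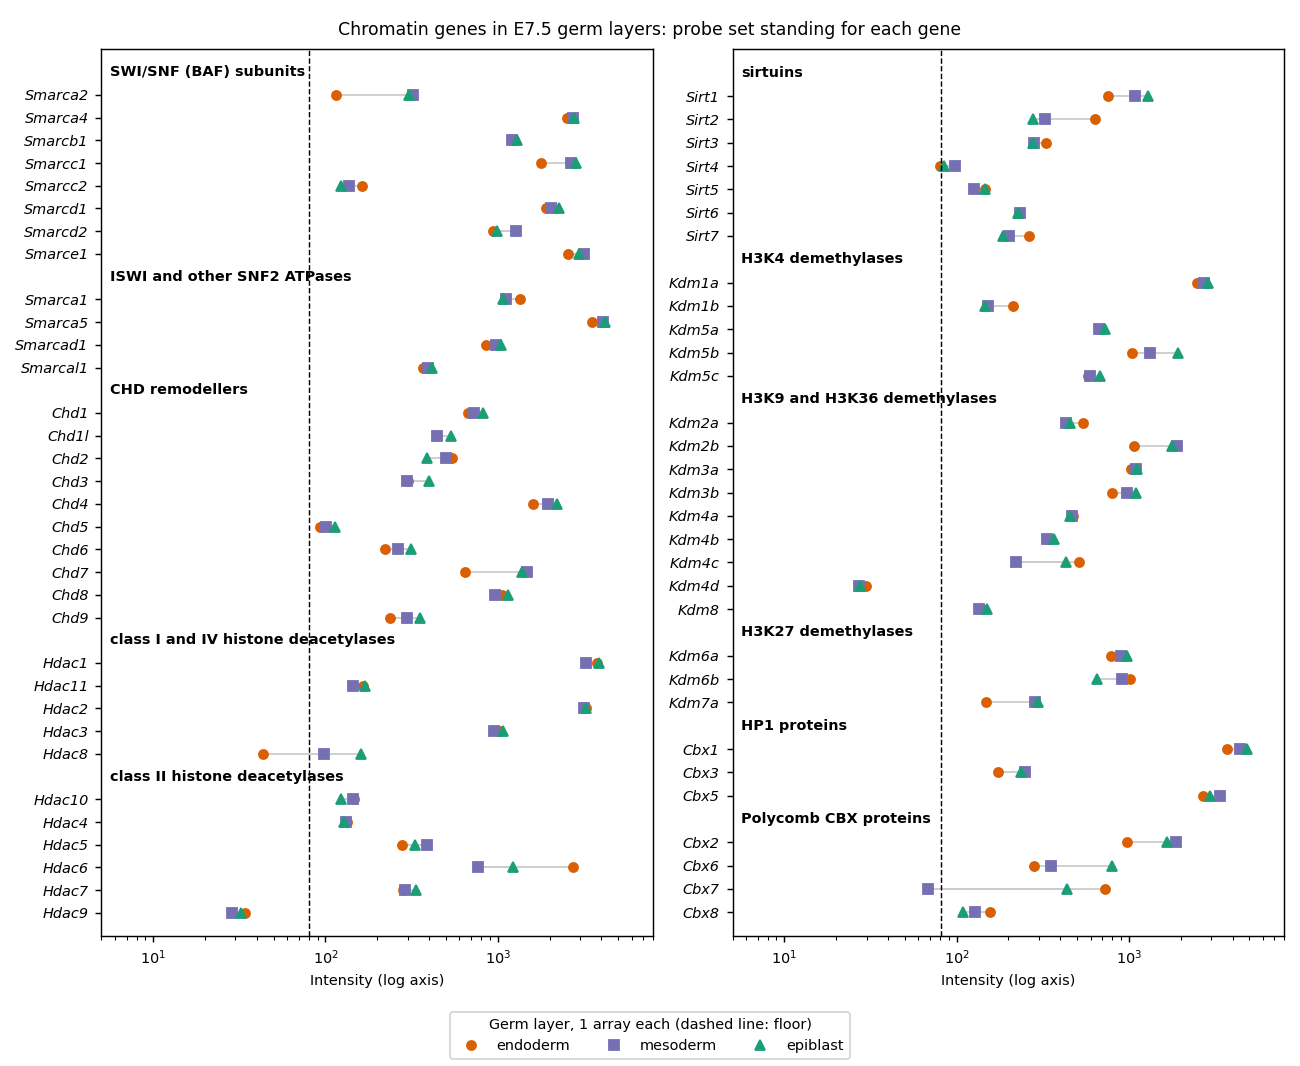
Intensity (log axis) of the probe set standing for each of the 64 chromatin genes on the endoderm, mesoderm and epiblast arrays, 1 array for each layer, grouped by role, with the floor of 80.6 as a dashed line. The symbols of most genes lie close together, and Cbx7, Hdac8, Hdac6, Cbx6, Smarca2, Sirt2, Kdm4c and Chd7 spread the widest.

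Split by direction, the counts were small, and for endoderm against epiblast they changed with the scaling. Centring on housekeeping genes gave 4 higher and 2 lower there (all genes 23.3% and 1.86%). The counts that follow are on the deposited scale. For endoderm against epiblast 2 genes were at least 2-fold higher in endoderm, Hdac6 and Sirt2, or 3.23% of the 62, while 12.5% of all genes were. In the other direction 4 genes were at least 2-fold lower in endoderm, Cbx6, Chd7, Hdac8 and Smarca2, or 6.45%, against 4.01% of all genes. For mesoderm against epiblast 0 genes were at least 2-fold higher in mesoderm, against 3.44% of all genes, and 2 were lower, Cbx6 and Cbx7, a share close to the 3.25% of all genes. For endoderm against mesoderm 3 genes were higher in endoderm, Cbx7, Hdac6 and Kdm4c, or 4.84%, against 11.4% of all genes. Another 3, or 4.84%, were lower in endoderm, Chd7, Hdac8 and Smarca2, against 3.86% of all genes.

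**Figure D2:**
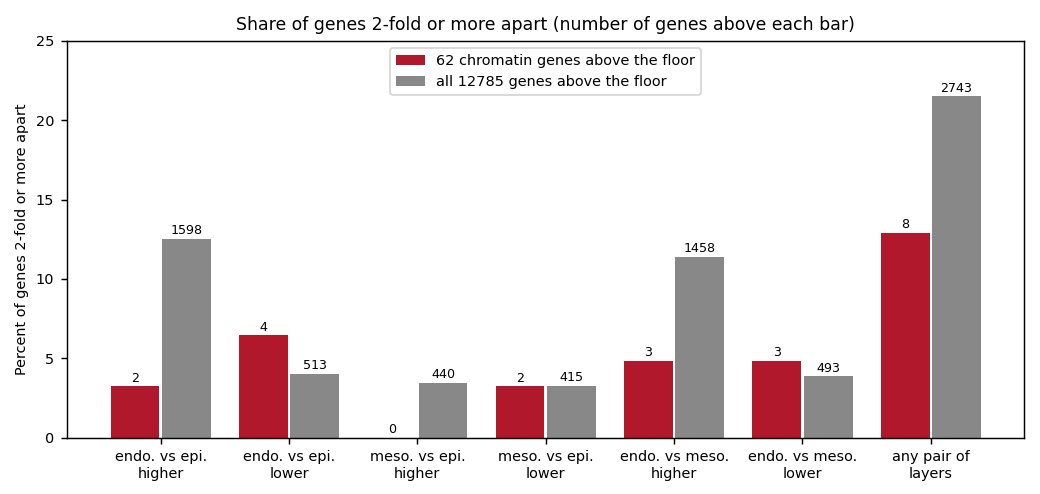
Percent of genes at least 2-fold higher or lower in each pair of layers, for the 62 chromatin genes above the floor and for all 12785 genes above the floor, with the number of genes above each bar. The widest gap is in the endoderm-high direction, where 2 chromatin genes (3.23%) stand beside 12.5% of all genes.

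The median differences of the chromatin genes lay below those of all genes in each pair. The median log2 difference of the 62 genes was -0.14 for endoderm against epiblast, where the median of all genes was 0.05. It was -0.09 for mesoderm against epiblast, beside -0.02 for all genes, and -0.07 for endoderm against mesoderm, beside 0.07. Of the 62 genes, 46 lay below the all-gene median for endoderm against epiblast. On the deposited scale endoderm was the lowest layer for 33 of them (53.2%, against 35.5% of all genes), and epiblast was the highest for 33 (53.2%, against 32.5%). For a single gene, the log2 difference varied between its probe sets by 0.28, 0.30 and 0.41 (pooled SD over the 32 chromatin genes that had more than 1 probe set above the floor) in those 3 pairs of layers, a spread that also holds differences between transcript forms. The sign of all 3 medians changed with centring on housekeeping genes. The centre was the median of 9 such genes on each array, 11.31, 11.46 and 11.77 on the log2 scale. It fell on Polr2a in endoderm and on Tfrc in the other layers, so the shift rests on single genes. The housekeeping genes did not move together: Hprt read 2265, 3055 and 3496, and Ywhaz 5277, 4351 and 4507. This centring put the chromatin genes at 0.31, 0.22 and 0.08 and all genes at 0.51, 0.29 and 0.23 in the same order of pairs. The gap between them for endoderm against epiblast was -0.19 as deposited, -0.20 after that centring and -0.29 after quantile normalization.

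**Figure D3:**
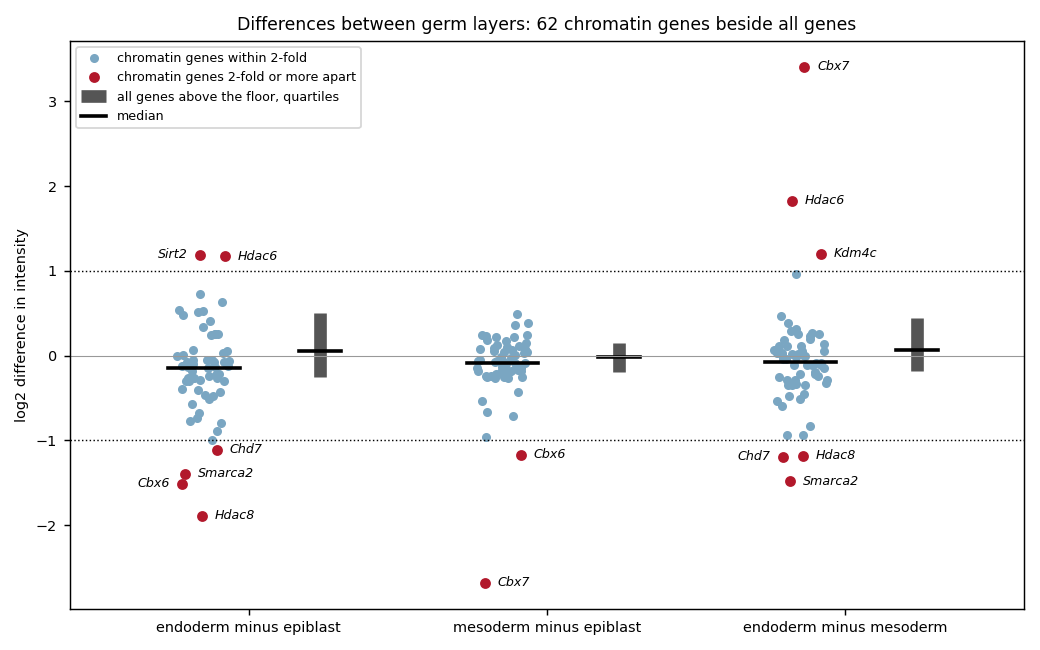
Log2 difference in intensity of each of the 62 chromatin genes for endoderm minus epiblast, mesoderm minus epiblast and endoderm minus mesoderm, with those at least 2-fold apart in red and named; black lines are medians and grey bars the quartiles of all genes above the floor. Most points for mesoderm minus epiblast crowd around 0. Cbx7 and Cbx6 lie lowest there, followed by Kdm4c at -0.96, which is not named for that pair. The endoderm comparisons spread both ways.

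The endoderm array carried strong visceral endoderm RNA. Afp, Ttr, Apob, Cubn and Amn, all 5 above the floor, summed to 35092 in endoderm, against 326 in mesoderm and 277 in epiblast. The layer markers separated in the labelled way, with Sox17 and Foxa2 summing to 7417, 164 and 239, Foxf1 and Kdr to 358, 3398 and 444, and Sox2 and Pou3f1 to 107, 254 and 4591. Of 4 trophoblast markers 2 were above the floor, with sums over the list of 552, 380 and 452, and of 3 erythroid markers 0 were and of 3 decidual and immune markers 1 was. The part of visceral endoderm cells in the endoderm differences of the chromatin genes was not tested.

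The widest difference belonged to Cbx7, one of the Cbx proteins of Polycomb repressive complex 1, which bind histone H3 trimethylated at lysine 27 (H3K27) and bring the complex to its targets. Cbx7, the family member known for its part in keeping mouse embryonic stem cells pluripotent, read 724 in endoderm, 68.2, below the floor, in mesoderm and 437 in epiblast. Mesoderm alone was low, so the endoderm value of Cbx7 was at least 8.98-fold above the mesoderm value, and the mesoderm value at least 5.42-fold below that of epiblast. Another probe set of the gene did not show this: it read 116, 135 and 140, and a further probe set was below the floor throughout. With the mean of all 3 probe sets, Cbx7 was 0.96 lower in mesoderm than in epiblast on the log2 scale and 1.14 higher in endoderm than in mesoderm.

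Cbx6, a Polycomb subunit most studied in neural tissue, was highest in epiblast, with 279.8, 353 and 797. Its other probe set gave the same order, 231, 339 and 707. Cbx6 was therefore lower in both other layers, 2.85-fold in endoderm and 2.26-fold in mesoderm against epiblast. After centring on housekeeping genes the mesoderm difference was -0.87 on the log2 scale, short of 2-fold. Cbx2, the subunit that compacts chromatin and acts in axial patterning and gonad development, had its lowest value in endoderm, with 980.2, 1886 and 1673, short of 2-fold. Cbx8, which is induced as embryonic stem cells differentiate, read 157, 128 and 108. Of the 4 Polycomb Cbx genes measured, endoderm was thus the lowest layer for Cbx6 and Cbx2 and the highest for Cbx7 and Cbx8.

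Cbx7 and Cbx6 are neighbours on mouse chromosome 15, and in the RefSeq annotation only Apobec3 and the long noncoding RNA gene D730005E14Rik lie between them. Hdac6 lies on the X chromosome. The 250 bases before the annotated start of each are shown because the neighbours Cbx7 and Cbx6 had unlike values and Hdac6 had the widest range of the genes measured above the floor in every layer. They are from RefSeq (GRCm38.p6), read 5′ to 3′ on the gene's strand, with capitals for a GC box (GGGCGG or its complement CCGCCC, the Sp1 family motif) and for an E-box of the type read by Snail and Zeb repressors (CAGGTG or CACCTG).
Cbx7 (chr15:79932647-79932896, minus strand): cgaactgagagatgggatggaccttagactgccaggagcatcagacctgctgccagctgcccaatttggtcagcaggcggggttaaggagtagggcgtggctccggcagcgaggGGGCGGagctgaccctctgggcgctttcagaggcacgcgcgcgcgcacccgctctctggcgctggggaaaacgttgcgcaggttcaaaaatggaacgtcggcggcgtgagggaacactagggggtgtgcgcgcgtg
Cbx6 (chr15:79834334-79834583, minus strand): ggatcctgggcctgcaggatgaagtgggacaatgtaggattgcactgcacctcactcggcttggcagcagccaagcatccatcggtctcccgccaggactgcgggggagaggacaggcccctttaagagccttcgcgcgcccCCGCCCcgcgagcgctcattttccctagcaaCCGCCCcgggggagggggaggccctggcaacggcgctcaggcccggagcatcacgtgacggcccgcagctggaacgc
Hdac6 (chrX:7947890-7948139, minus strand): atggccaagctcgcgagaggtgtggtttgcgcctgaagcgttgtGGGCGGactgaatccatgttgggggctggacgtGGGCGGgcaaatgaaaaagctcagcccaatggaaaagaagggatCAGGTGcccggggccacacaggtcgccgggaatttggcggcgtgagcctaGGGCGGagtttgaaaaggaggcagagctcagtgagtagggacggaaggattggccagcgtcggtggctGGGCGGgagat
The windows held 1, 2 and 4 GC boxes and 23, 20 and 17 CpG dinucleotides for Cbx7, Cbx6 and Hdac6, and the capitals never overlap. The marked E-box motif, CAGGTG or CACCTG, was present once, in the Hdac6 window, and absent from the Cbx windows. E-boxes with other middle letters were not searched for.

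The promoters of the chromatin genes were rich in CpG. Promoters of 50 of the 64 genes were found, in 68 windows. A GC box was in 66.2% of those windows, against 32.7% of 32851 windows of the same length over all genes, and the median number of CpG was 19 against 6. The E-box motif was in 8.82% of them, against 17.2% of all windows. The windows over all genes belong to 27025 genes, whether or not they were above the floor here. Promoters of the genes above the floor were not counted apart, so the contrast cannot be read as particular to chromatin genes. These are counts of letters and say nothing of binding.

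**Figure D4:**
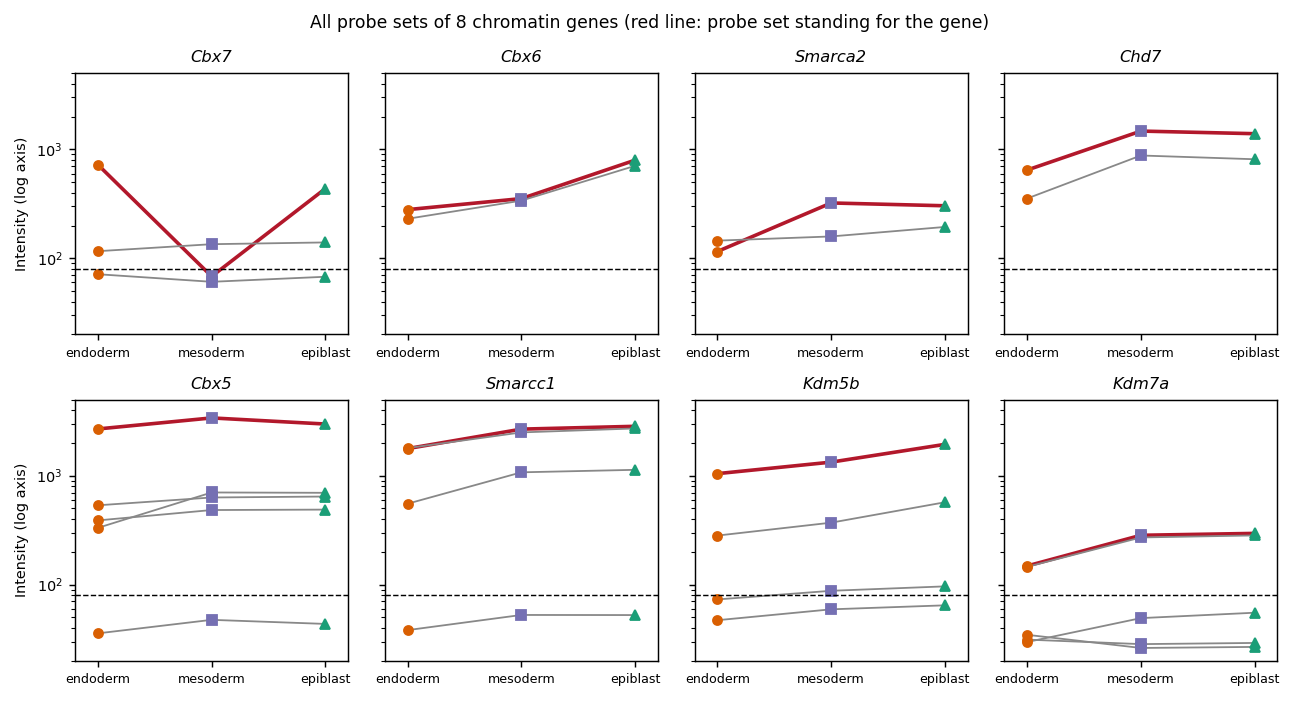
Intensity (log axis) of every probe set of 8 chromatin genes on the 3 arrays, with the probe set standing for the gene in red and the floor of 80.6 dashed. The lines of Cbx6 and Chd7 run in parallel, while those of Cbx7 and Smarca2 part: 1 probe set moves and the other stays nearly level.

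The heterochromatin proteins HP1, which read methylated H3K9, varied less. Cbx1, HP1 beta, read 3726, 4391 and 4883. Cbx5, HP1 alpha, read 2684, 3389.7 and 2979, although 1 of its 4 probe sets above the floor, with 332, 701 and 696, was 1.07 lower in endoderm than in epiblast on the log2 scale. Cbx3, HP1 gamma, was measured by a dim probe set of its own with 175, 249 and 235. All 3 were lowest in endoderm as deposited, although after centring on housekeeping genes 0 of the 3 were lower in endoderm than in epiblast, and none reached 2-fold on the probe set that stood for the gene.

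Among the deacetylases of classes I and IV, the catalytic subunits of the large repressor complexes were close to level. Hdac1 read 3749, 3272 and 3891, and Hdac2, its partner in the NuRD, Sin3 and CoREST complexes, 3271, 3154 and 3264. Hdac3, the enzyme of the NCoR and SMRT corepressors, read 1031, 951 and 1077. The widest range of those 3 was 0.25 on the log2 scale, below the spread between probe sets. Hdac11, the single class IV enzyme, was also level at 165, 145 and 171.

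Hdac8, the X-linked class I enzyme that deacetylates the cohesin subunit Smc3, departed from its class. It read 43.6 in endoderm, below the floor, 98.6 in mesoderm and 162 in epiblast, on its only probe set. The endoderm value was therefore at least 2.004-fold below epiblast, and against mesoderm, where it was counted by its measured value, the bound was 1.22-fold. All of these values are dim, and with the endoderm value raised to the floor the log2 difference against mesoderm was -0.29.

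Class II deacetylases shuttle between nucleus and cytoplasm, and Hdac6 stays mostly in the cytoplasm, where it deacetylates tubulin. Hdac6 read 2737 in endoderm, 772 in mesoderm and 1219 in epiblast. Endoderm stood apart from both other layers, 3.55-fold above mesoderm and 2.25-fold above epiblast, on its only probe set. The mesoderm value was in turn 1.58-fold below the epiblast value. After quantile normalization the log2 difference of endoderm against epiblast was 0.89, short of 2-fold. Hdac4, a class IIa enzyme of muscle and cartilage, was level at 134, 131 and 128, and Hdac5, Hdac7 and Hdac10 stayed within 1.5-fold in every pair.

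Sirtuins are deacylases that use NAD+ and differ in where they act. Sirt2, another cytoplasmic tubulin deacetylase, read 633 in endoderm, 325 in mesoderm and 278 in epiblast. Sirt2 had 1 probe set, on which endoderm exceeded epiblast by 2.28-fold and mesoderm by 1.95-fold. As deposited, the tubulin deacetylases Hdac6 and Sirt2 were thus the genes counted as higher in endoderm than in epiblast. After centring on housekeeping genes 4 genes were counted so, against 23.3% of all genes. Under quantile normalization the difference of Sirt2 for endoderm against epiblast was 0.91 on the log2 scale, also short of 2-fold. In that setting 0 chromatin genes were counted as higher, against 9.56% of all genes. Sirt1, the nuclear enzyme, ran the other way, with 752, 1092 and 1297, a 1.73-fold lower value in endoderm than in epiblast.

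The remaining sirtuins varied less. Sirt6, a nuclear enzyme of telomeres and DNA repair, was level at 231, 233 and 227, and nucleolar Sirt7 read 263, 202 and 185. The mitochondrial Sirt3, Sirt4 and Sirt5 stayed within 1.5-fold in every pair, and Sirt4 lay near the floor with 80.5, 98.4 and 84.7.

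The SWI/SNF or BAF remodeller carries either of the ATPases Smarca4 (Brg1) and Smarca2 (Brm), and Smarca4 is the one that embryonic stem cells mainly use. Smarca4 read 2515, 2723 and 2757, with a range of 0.13 on the log2 scale. Smarca2 read 115 in endoderm, 322 in mesoderm and 304 in epiblast. Endoderm was the low layer for Smarca2, 2.63-fold below epiblast and 2.79-fold below mesoderm. Its other probe set was also lowest in endoderm but with less distance, 145, 159 and 194, and with the mean of both the gene was no longer 2-fold apart. After centring on housekeeping genes the log2 difference against epiblast was -0.94, also short of 2-fold.

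Smarcc1 (BAF155), a scaffold subunit of the stem cell form of the complex, had its lowest value in endoderm as well. It read 1772, 2675 and 2839, 1.60-fold lower in endoderm than in epiblast. A further probe set with 553, 1074 and 1132 put that difference at 2.05-fold. Smarcc2 (BAF170), the paralogue that joins the complex on differentiation, ran in the opposite order with 163, 137 and 123.

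The core subunit Smarcb1 was level at 1246, 1203 and 1292. Smarcd1, Smarcd2 and Smarce1, accessory subunits of the complex, stayed within 1.5-fold in every pair. Partner genes of the BAF complex without a Smarc symbol are set beside them: 0 of 18 above the floor reached 2-fold in any pair, against 21.5% of all genes, with a median of -0.18 for endoderm against epiblast.

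The ISWI ATPases slide nucleosomes into even arrays. Smarca5 (Snf2h) read 3505, 4074 and 4206. Smarca1 (Snf2l), its X-linked paralogue, read 1350.1, 1117 and 1069. As deposited, the ordering of the layers was thus reversed between these paralogues, each within 1.5-fold on the probe set that stood for the gene. A further probe set of Smarca5, with 2391, 3250 and 3672, was 1.54-fold lower in endoderm than in epiblast. Smarcad1, a remodeller of heterochromatin, and Smarcal1, an annealing helicase at stalled replication forks, were both lowest in endoderm and highest in epiblast, within 1.5-fold. These orders hold for the deposited scale. After centring on housekeeping genes 0 of the 4 genes were lower in endoderm than in epiblast.

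CHD proteins combine a chromodomain pair with the ATPase. As a family they leaned low in endoderm: 9 of 10 lay below the all-gene median for endoderm against epiblast, with a median of -0.35 as deposited, -0.63 after quantile normalization and 0.10 after centring on housekeeping genes, where all genes stood at 0.05, -0.11 and 0.51. Chd7, the remodeller of neural crest and inner ear mutated in CHARGE syndrome, was the single one past 2-fold. It read 646, 1472 and 1393, and its other probe set 354, 879 and 812. Endoderm was thus 2.16-fold below epiblast and 2.28-fold below mesoderm, with mesoderm and epiblast within 1.5-fold. After centring on housekeeping genes the log2 difference against epiblast was -0.65, short of 2-fold.

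Chd4, the ATPase of the NuRD complex, read 1595, 1955 and 2201. Chd1, which binds H3K4 trimethylation and keeps stem cell chromatin open, read 674, 725 and 827. Both had the order endoderm, mesoderm, epiblast from low to high, as did Chd5, Chd6 and Chd9. Chd2 was the exception of the family with 541, 502 and 387. Chd3 and Chd1l were lower in both endoderm and mesoderm than in epiblast by less than 1.5-fold, and Chd8, which restrains Wnt signalling, read 1054, 969 and 1148.

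Of the enzymes that erase H3K4 methylation, a mark of promoters and enhancers, none reached 2-fold on the probe set that stood for the gene. Kdm5b (Jarid1b), which removes H3K4 trimethylation at promoters in stem cells, was the nearest, with 1044, 1332 and 1939. Its second probe set read 282, 370.4 and 570.2, and endoderm was the low layer on both, 1.86-fold below epiblast on the brighter and 2.02-fold on the other. Kdm1a (LSD1), the demethylase of CoREST that acts on enhancers when stem cells differentiate, read 2475, 2744 and 2866.

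Kdm1b, the LSD1 relative needed for imprints in oocytes, was instead highest in endoderm with 211, 152 and 145. Kdm5a read 679.9, 668 and 730.3, and the X-linked Kdm5c 580.1, 598 and 679.8. The differences of Kdm5a and Kdm5c were below the spread between probe sets, and a dimmer probe set of Kdm5c ran the other way with 309, 275 and 222.

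The enzymes for H3K9 and H3K36 methylation were mostly level, and Kdm4c and Kdm2b differed most. Kdm4c (Jmjd2c), an H3K9 and H3K36 demethylase found at promoters of embryonic stem cells, was low in mesoderm, with 512, 222 and 432. Its mesoderm value was 2.302-fold below endoderm and 1.94-fold below epiblast, on its only probe set. After quantile normalization the log2 difference of endoderm against mesoderm was 0.99, just short of 2-fold. The related Kdm4a read 473, 469 and 455 and Kdm4b 336, 333 and 368, and both stayed within 1.5-fold in every pair.

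Kdm2b, which carries a variant Polycomb complex to unmethylated CpG islands, was low in endoderm, with 1076, 1913 and 1783. Its second probe set gave 736, 1278 and 1229. Endoderm was 1.78-fold below mesoderm on the first of these. Kdm2a, the H3K36 demethylase with the same CpG-binding domain, read 542, 433 and 453, and Kdm3a, Kdm3b and Kdm8 stayed within 1.5-fold in every pair.

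The demethylases of H3K27, which undo the Polycomb mark, went different ways. Kdm6a (Utx), the X-linked enzyme, read 788, 897 and 972. Kdm6b (Jmjd3), an inducible enzyme of differentiation and inflammation, was lowest in epiblast, with 1014, 918 and 654 on one probe set and 893, 849 and 519 on another. A further, dim probe set of Kdm6b ran the other way with 58.9, 87.8 and 96.9. Kdm7a, which removes H3K9 and H3K27 dimethylation and promotes neural differentiation in mouse cells, read 148, 284 and 295, and a second probe set gave 146, 271 and 283. Endoderm was its low layer, 1.99-fold below epiblast, just short of the 2-fold limit.

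Partner proteins of these enzymes that carry other symbols give the setting, as a list of 82 genes of which 76 were above the floor. For endoderm against epiblast 7 of them were at least 2-fold higher and 3 lower, with a median of -0.02, beside 12.5% higher and 4.01% lower of all genes, so neither count stood above the background. Of 15 partners in the repressor complexes that hold Hdac1 and Hdac2, 3 were higher in endoderm and 2 lower, beside the same background. Mbd2, which tethers NuRD to methylated DNA, read 824, 241 and 106. Rcor1, the main CoREST scaffold, read 1189, 658 and 425, and its relative Rcor2 the reverse order with 293, 595 and 629. A further relative, Rcor3, had the order of Rcor1, with 205, 155 and 86.9. Sap30 of the Sin3 complex was lower in endoderm, with 837, 1909.8 and 2353.

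Polycomb partners gave 2 genes higher and 1 lower in endoderm than in epiblast, of 20, close to the shares of all genes (12.5% and 4.01%). Pcgf5, a RING finger partner of variant complexes, read 2358, 807 and 329, and Bmi1, a partner in Cbx-containing complexes, 1214, 991 and 532. Phc1, the polyhomeotic subunit, was instead highest in epiblast with 927, 1016 and 2457. Phc1 and Cbx6 were thus the components of the Cbx-containing complex at least 2-fold lower in both endoderm and mesoderm than in epiblast among the genes listed, as deposited.

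The lists of writers of histone marks had 1 gene each past 2-fold for endoderm against epiblast, higher in endoderm. Among all genes 12.5% were higher and 4.01% lower, so neither list stood above the background. Of 14 genes listed with the methyltransferases it was Prdm1 (Blimp1), with 442, 98.8 and 40.1, at least 5.49-fold above epiblast. Prdm1 is a repressor needed for germ cells that recruits such enzymes, and the other genes of that list stayed within 2-fold. Of 9 acetyltransferases Kat2b (PCAF) was higher in endoderm, with 281, 70.5 and 112.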

How the data were processed

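Deposited values are linear intensities that the authors made with the array manufacturer's software, Robust Multiarray Average (RMA) and the affy package, from 100 ng RNA per array. The sources used here give neither software versions nor the step that returned RMA values to a linear scale, and the normalization was kept. Of 45037 probe sets, 34945 had 1 symbol in the platform annotation, 932 had several and 9160 were not named there, and only the first kind was used. Log2 differences between layers were taken with Python 3.11.15, NumPy 2.4.6 and pandas 2.3.3. A gene was counted at 2-fold or more with its highest value above the floor. Genes named in the text are those counted as differing, in each role up to 4 with the widest range and any that went against the rest, those below the floor, those whose probe sets disagreed and, among partner genes, up to 3 counted in each list. The other members, and Rcor2 and Rcor3 beside Rcor1, were named to complete a family after their values were seen. The members and gene lists were chosen with earlier results of these data known. The significance analysis that the methods name needs replicates, so p-values were not computed. Having 3 arrays limits the precision. The calculation was tested on simulated data. Alternatives covered the floor, the choice of probe set, the scaling and the fold limit.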

Additional observations from a re-analysis of the deposited data

How the results depend on the processing

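With 1 array for each layer and no replicate to leave out, the results rest on the scaling, the floor and the choice of probe set. No paired analysis was possible because each layer has 1 array. None of the 14 differences counted at 2-fold changed sign under the alternatives run for them. Of their recomputed values, 95 stayed within the spread between probe sets and 15 moved beyond it. Many of the 95 could not move, so this count is no measure of stability. A different floor leaves a measured difference as it was, and a gene with 1 probe set has no other to choose. The moves came from raising dim values to the floor, the mean of probe sets and the 2 changes of scaling. Smaller differences did change sign, among them the median of the CHD genes and the HP1 genes after centring on housekeeping genes. The shift of that centring rests on single genes. Quantile normalization left 0 genes at least 2-fold higher and 9 lower in endoderm than in epiblast (all genes 9.56% and 5.31%), with 6 lower in endoderm than in mesoderm (all genes 4.72%). Sirt2 was lost and Cbx2, Kdm2b, Kdm5b, Kdm7a and Sirt1 were gained. That made 12 of 62 in any pair (all genes 19.9%), so the lower share seen on the deposited scale was not kept. Centring on housekeeping genes gave 4 higher and 2 lower for endoderm against epiblast (all genes 23.3% and 1.86%), 1 lower for mesoderm against epiblast (all genes 2.08%), and medians of 0.31 and 0.22 for those pairs. The mean of probe sets left 1 gene lower in mesoderm than in epiblast (all genes 2.91%). A 1.5-fold limit gave 4 higher and 10 lower for endoderm against epiblast (all genes 21.9% and 9.14%), 5 lower for mesoderm against epiblast (6.38%), 7 lower for endoderm against mesoderm (7.93%) and 15 in any pair (38.4%). A 3-fold limit gave 0 higher and 1 lower for endoderm against epiblast (6.05% and 1.42%), 1 lower for mesoderm against epiblast (1.51%), 0 lower for endoderm against mesoderm (1.72%) and 3 in any pair (11.2%), Cbx7, Hdac6 and Hdac8, the last by a measured value below the floor. The floor at the 75th percentile lost Hdac8, whose values are dim.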

Other observations

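The chromatin genes on the X chromosome, 5 in number, did not move together. As deposited, on the probe set that stood for the gene, Hdac6 was highest in endoderm and Smarca1 was too, while Hdac8, Kdm5c and Kdm6a were lowest there. Other probe sets of Kdm5c differed: 1 with 563, 487 and 579 was lowest in mesoderm, and 1 with 309, 275 and 222 was highest in endoderm. The log2 differences for endoderm against epiblast were 1.17 for Hdac6, 0.34 for Smarca1, -1.89 for Hdac8, -0.23 for Kdm5c and -0.30 for Kdm6a. That of Kdm5c was below the spread between probe sets, 0.28 for this pair. The sources used here do not give the sex of the embryos.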
